A study of Mus musculus with 11 samples.

Results

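Meg3, Rian, Mirg, Snhg11, Miat, Kcnq1ot1, Snhg14 and Pantr1 are long non-coding RNAs that stay largely in the nucleus, and they were followed here through brain nuclei in which a drug lowers another nuclear RNA, Malat1. The members were taken by symbol from the deposited gene list, and all 8 were found among its 25938 genes. Their counts over all libraries ran from 23463 UMIs (unique molecular identifiers, 1 per captured RNA molecule) for Pantr1 to 308836 for Snhg14, and Snhg11 and Meg3 had more.

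The libraries came from posterior brain of mice labelled as human TfR (transferrin receptor) knock-in and hTfR KI HOM, so every group, controls included, carried the human receptor. OTV:Malat1 (60 mg per kg; 3 libraries) carries an antisense oligonucleotide (ASO) against Malat1 on a protein that binds this receptor, nonTV:Malat1 (60 mg per kg; 3 libraries) carries it on a protein without receptor binding, and Malat1 ASO (2.5 mg per kg; 2 libraries) is the free oligonucleotide. The control ATV:BACE1 (57 mg per kg; 3 libraries), an antibody against the enzyme BACE1, binds the receptor and carries no oligonucleotide. All were given into a vein as 4 weekly doses, and brains were taken 72 hours after the last. Replicate 1 of every group was a female aged 2.33 months, replicate 4 a male aged 2.57 months and replicate 5 a male aged 2.33 months, and the Malat1 ASO group had no replicate 4. The deposited table gives the tissue as cortex and the strain as C57BL/6J, which differs from the sample labels. Nothing in the labels says that each library is a separate animal, so p-values measure the spread between these libraries.

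The 11 libraries held 7546 to 13840 nuclei and 33235994 to 43972886 UMIs each, and 110304 nuclei in all, of which neurons made up 69.1%. Of 108788 distinct barcodes 1495 occurred in more than 1 library, at most 0.551% of the smaller library of a pair. Marker genes were highest in the class of their name in 8 of the 9 classes checked, the exception being Pdgfrb among 3 pericyte markers. The class deposited as Glia was led by Ttr (3724 CPM, UMIs of a gene per 1000000 UMIs), a choroid plexus gene, and also held the ependymal gene Dnah12 (883 CPM), so it is called nuclei named Glia here. Malat1, the targeted RNA, took 7.45 to 8.38% of UMIs in ATV:BACE1 libraries, 4.00 to 5.03% in OTV:Malat1, 7.49 to 8.39% in nonTV:Malat1 and 7.87 to 8.15% in Malat1 ASO libraries.

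Long non-coding RNAs of this kind are spliced or unspliced transcripts that are held in the nucleus, where several of them act on the chromosome they are made from. Meg3, Rian and Mirg are read in the same direction from the imprinted Dlk1-Dio3 domain, where the maternal copy makes these RNAs and the paternal copy makes the protein-coding genes Dlk1, Rtl1 and Dio3. Kcnq1ot1 and Snhg14 are paternally expressed antisense RNAs that silence neighbours on their own chromosome, Cdkn1c and Kcnq1 in the first case and, in neurons, Ube3a in the second. Miat forms its own nuclear bodies and binds splicing factors, Snhg11 and Snhg14 host small nucleolar RNAs (snoRNAs), and Pantr1 is transcribed beside the neural transcription factor gene Pou3f3.

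In the GENCODE vM21 annotation of mm10, Meg3 lies on the plus strand at chr12:109541001-109571726, Rian at chr12:109603940-109661716 and Mirg at chr12:109729764-109749460. The 3 genes span 208460 bases, with gaps of 32213 and 68047 bases. On their own strand Mirg overlaps 14 miRNA genes, Rian 4 and Meg3 2, and Rian also overlaps 13 snoRNA genes. The 300 bases around a RefSeq start of each gene (GRCm38.p6, plus strand, 250 before and 50 after the start) are shown because the 3 RNAs come from 1 domain and differ at their starts. The Mirg window lies inside the GENCODE gene and not at its start, so it does not describe that start. Capitals mark the cyclic AMP response element TGACGTCA, searched on both strands.
Meg3, chr12:109540746-109541045: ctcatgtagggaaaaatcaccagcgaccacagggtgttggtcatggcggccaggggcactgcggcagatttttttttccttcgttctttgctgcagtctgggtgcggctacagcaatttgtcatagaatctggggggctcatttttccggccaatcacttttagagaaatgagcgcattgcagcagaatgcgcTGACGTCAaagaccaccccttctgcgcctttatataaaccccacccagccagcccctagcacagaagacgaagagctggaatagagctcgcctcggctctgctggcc
Rian, chr12:109603695-109603994: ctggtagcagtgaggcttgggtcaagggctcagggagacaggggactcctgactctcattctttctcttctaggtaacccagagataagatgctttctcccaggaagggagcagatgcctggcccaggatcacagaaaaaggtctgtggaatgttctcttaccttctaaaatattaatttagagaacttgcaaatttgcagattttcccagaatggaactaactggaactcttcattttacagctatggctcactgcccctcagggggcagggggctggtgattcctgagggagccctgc
Mirg, chr12:109734731-109735030: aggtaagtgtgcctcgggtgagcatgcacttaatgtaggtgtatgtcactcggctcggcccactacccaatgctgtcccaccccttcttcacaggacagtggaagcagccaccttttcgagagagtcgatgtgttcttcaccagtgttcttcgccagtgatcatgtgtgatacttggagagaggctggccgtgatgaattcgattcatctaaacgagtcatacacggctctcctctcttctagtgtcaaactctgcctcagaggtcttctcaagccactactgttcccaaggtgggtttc
RefSeq gives Meg3 another start, and the window around it (chr12:109545148-109545447, plus strand) holds 0 copies of TGACGTCA and 1 CpG. The element TGACGTCA was found in the Meg3 window shown and not in the windows of Rian or Mirg. It was present in 1.79% of all 32851 RefSeq windows of this length, each searched on both strands. The Meg3 window shown holds 13 CpG dinucleotides, that of Mirg 10 and that of Rian 0, against a median of 7 over all windows.

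The other members lie elsewhere. Snhg11 is at chr2:158375638-158386145 on the plus strand, and GENCODE gives its type as protein-coding although it is known as a snoRNA host RNA. Miat is at chr5:112213228-112229395 and Pantr1 at chr1:42590782-42694842, both on the minus strand. Kcnq1ot1 (chr7:143203458-143296549, minus strand) overlaps Kcnq1 on the opposite strand, and Snhg14 (chr7:59307924-59975759, minus strand) holds 208 snoRNA genes and overlaps Ube3a on the opposite strand and Gm38393 on the same one. Whether the counts used strand is not given in the sources used here, so reads of an antisense partner cannot be told apart for these 2 RNAs. The same limit holds for other members with an annotated gene on the opposite strand. Meg3 and Miat each overlap 1 long non-coding RNA gene there, Mirg 1 miRNA gene and Pantr1 1 gene. Miat is known for repeats of ACTAAC, the letters of a branch point, and the stretch that holds 4 of them is shown with the repeats in capitals (transcript ENSMUST00000182953.7, positions 4932 to 5171).
Miat: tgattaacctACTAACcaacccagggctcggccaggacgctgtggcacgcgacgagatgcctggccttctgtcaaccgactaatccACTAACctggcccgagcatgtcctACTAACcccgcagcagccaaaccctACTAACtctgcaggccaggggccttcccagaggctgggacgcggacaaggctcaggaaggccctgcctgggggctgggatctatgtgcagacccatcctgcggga
This transcript holds 11 copies of ACTAAC, 1.20 per 1000 bases. A lower density was found in 99.3% of 4979 long non-coding genes, each taken by its longest transcript, of 1000 bases or more. The longest transcripts of Rian and Snhg14, and Malat1, hold 0 copies.

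Levels over cell classes were described first, as CPM of all UMIs of a class summed per library. Neurons were the highest class for 6 of the 8 RNAs, the exceptions being Kcnq1ot1 and Pantr1. Levels of different RNAs were not compared with each other, because they were not scaled by length.

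Among the RNAs of the Dlk1-Dio3 domain, Meg3, an RNA best known for its loss in tumours, was at 7277 to 8074 CPM in neurons (median 7628, n = 11 libraries). The next class, nuclei named Glia, had 917 to 2126 CPM, so the ranges did not overlap and the medians differed 5.88-fold. All 8 non-neuronal classes with enough nuclei overlapped their neighbours in the order, from nuclei named Glia (median 1297) down to vascular endothelium (median 481). Rian, which hosts snoRNAs and miRNAs, was at 604 to 734 CPM in neurons, 3.90-fold above nuclei named Glia (128 to 197). Mirg, a miRNA host RNA, was at 108.5 to 133 CPM in neurons, also 3.90-fold above nuclei named Glia (16.5 to 60.6). For both, no neuron library overlapped the next class.

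Of the snoRNA host RNAs, Snhg11 was at 3989 to 5127 CPM in neurons and 572 to 1261 CPM in leptomeningeal cells, the next class, a 5.35-fold difference of medians without overlap. Snhg14 was at 801 to 1023 CPM in neurons and 127 to 218 CPM in nuclei named Glia, 4.81-fold apart without overlap. Miat was at 114 to 148 CPM in neurons and 13 to 53.0 CPM in nuclei named Glia, 4.85-fold apart without overlap. The orders of the remaining classes rested on overlapping ranges for these 3 RNAs.

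Kcnq1ot1 and Pantr1 had other patterns. Kcnq1ot1 had its highest median in nuclei named Glia (467 to 794 CPM), which overlapped neurons (401 to 499) and neurons in turn overlapped leptomeningeal cells (353 to 517). Those 3 classes stood apart from oligodendrocytes (225 to 299), the next in order, which had a median 1.52-fold below that of leptomeningeal cells. Lower in the order, pericytes (124 to 427) and vascular smooth muscle (95.9 to 396) overlapped leptomeningeal cells, and pericytes also overlapped neurons. Pantr1 was highest in astrocytes, at 139.7 to 222 CPM, above oligodendrocytes (38.5 to 88.3) by 2.33-fold and without overlap. Neurons (43.8 to 60.4 CPM) overlapped oligodendrocytes and the classes next to them in the order for Pantr1, and pericytes had the lowest median (4.69 to 45.3).

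**Figure D1:**
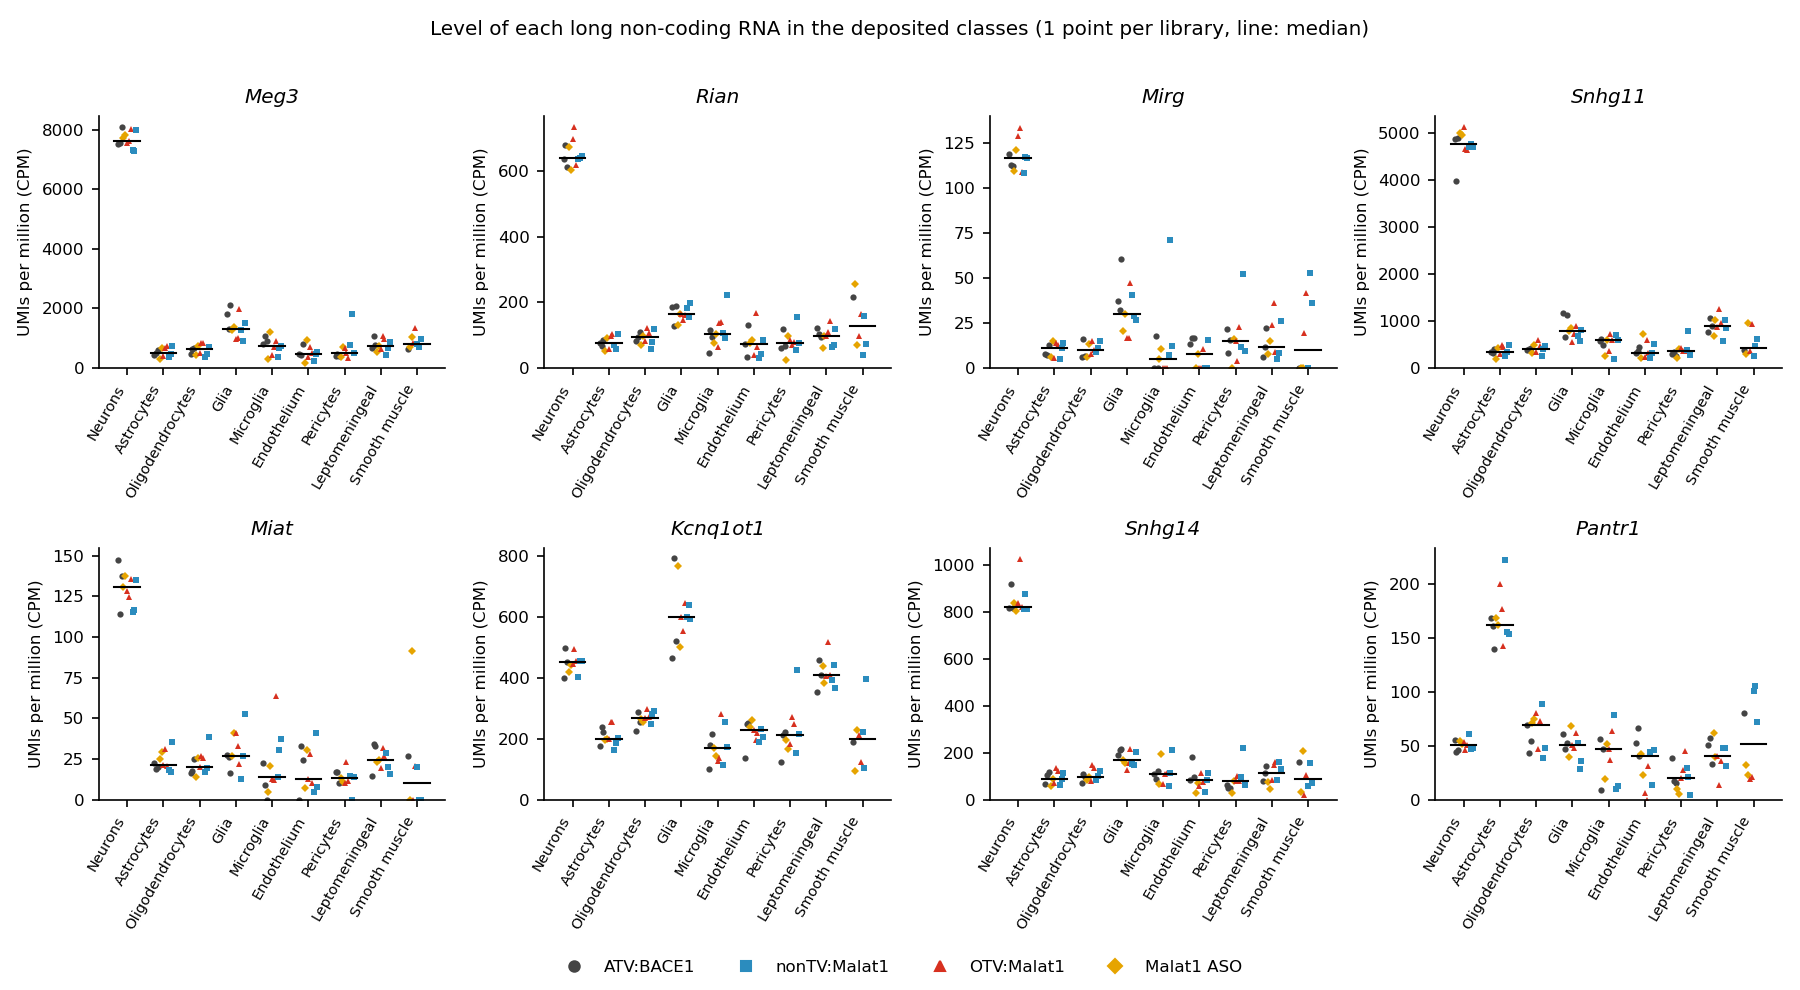
CPM (vertical axis, linear, from 0) of each RNA in 9 deposited classes (horizontal axis), with 1 point per library coloured by dosing group and a line at the median. Neurons stand above every other class for Meg3, Rian, Mirg, Snhg11, Miat and Snhg14, Kcnq1ot1 spreads over several classes, and astrocytes lead for Pantr1.

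The share of each RNA's UMIs that fell in nuclei named neurons was set beside the share of all UMIs that neurons held, 87.1% (median of 11 libraries). It was 98.9% for Meg3, 98.7% for Snhg11, 98.5% for Mirg, 98.4% for Snhg14, 98.1% for Rian and 97.6% for Miat. Kcnq1ot1 stood at 91.3%, above the share of all UMIs, and Pantr1 at 77.9%, below it.

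Low levels in glia were read beside markers of neurons in the same nuclei, since free RNA in the droplets gives UMIs to cells that do not make a gene. The summed level of 7 neuron markers was 5.97-fold higher in neurons than in oligodendrocytes (median; 4.16 to 7.46 over libraries) and 8.03-fold higher than in astrocytes. The fold of neurons over oligodendrocytes was larger than this for Meg3 (11.9), Snhg11 (11.3), Mirg (11.1), Snhg14 (8.60) and Rian (7.31), and Miat had 5.94. Kcnq1ot1 had 1.66 and Pantr1 0.793. How much of the glial level of any of these RNAs is free RNA was not tested.

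Detection per nucleus gave the same division after each nucleus was thinned to 500 UMIs other than Malat1. Meg3 had at least 1 UMI in 92.5% of neurons (98.2% before thinning, median depth 3926 UMIs) and in 27.3% of microglia (39.1%, median depth 883), a class that should make little of a neuronal RNA. Snhg14 was detected in 34.4% of neurons (89.2% before thinning) and 2.99% of microglia (8.70%). Pantr1 was detected in 8.71% of astrocytes (21.4% before thinning, median depth 1402), 2.71% of neurons (18.8%) and 2.20% of microglia (4.95%). For Pantr1 the thinned shares of neurons and microglia were close, whereas unthinned neurons stood near astrocytes at a greater depth. Kcnq1ot1 was detected in 26.8% of nuclei named Glia, 20.1% of neurons, 11.9% of oligodendrocytes and 6.08% of microglia after thinning (73.9, 76.0, 21.2 and 14% before). Nuclei too shallow to thin were 0.294 to 0.978% of a dosing group over all classes. By class and group they were 0.106 to 0.218% of neurons, 0.78 to 0.937% of astrocytes, 0.889 to 2.99% of microglia and 0.351 (OTV:Malat1) to 5.15% (ATV:BACE1) of oligodendrocytes (means over libraries).

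Within neurons, the RNAs differed between the deposited clusters 0, 1, 2 and 9, each over 97% neurons by deposited class. Cluster 0 was rich in Slc17a7 (155.5 CPM), a vesicular glutamate transporter of excitatory cells, with little Gad2 (24.2 CPM), which makes the inhibitory transmitter GABA. Clusters 1, 2 and 9 held Gad2 at 155, 134 and 121.5 CPM, and cluster 1 also held the glutamate transporter gene Slc17a6 (64.3 CPM). Cluster 1 thus held markers of both kinds, and whether they lie in the same nuclei was not tested.

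Cluster 1 was the highest cluster for Meg3, Rian, Mirg, Snhg11 and Snhg14. Meg3 was at 9939 to 11048 CPM there, above cluster 9 (8360 to 9598) without overlap, and 1.79-fold above cluster 2 (median of the per-library folds; higher in 11 of 11 libraries). The folds of cluster 1 over cluster 2 were 1.52 for Rian, 1.59 for Mirg, 1.80 for Snhg11 and 1.58 for Snhg14, each in 11 of 11 libraries. For these 4 RNAs the ranges of clusters 1 and 9 overlapped, although cluster 1 was above cluster 9 in each library for Rian (1.24-fold), Mirg (1.19), Snhg11 (1.23) and Snhg14 (1.21).

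Miat went another way. It was highest in cluster 0, at 153 to 210.2 CPM, with no overlap with cluster 1 (95.1 to 123). Its level in cluster 0 was 3.51-fold that in cluster 2, with a range over libraries of 2.38 to 4.18. Pantr1 was at 29.4 CPM (median) in cluster 1, lower than in cluster 2 in each of 11 libraries (0.530-fold), and its highest cluster was the astrocyte cluster 4 (145 to 228 CPM).

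**Figure D2:**
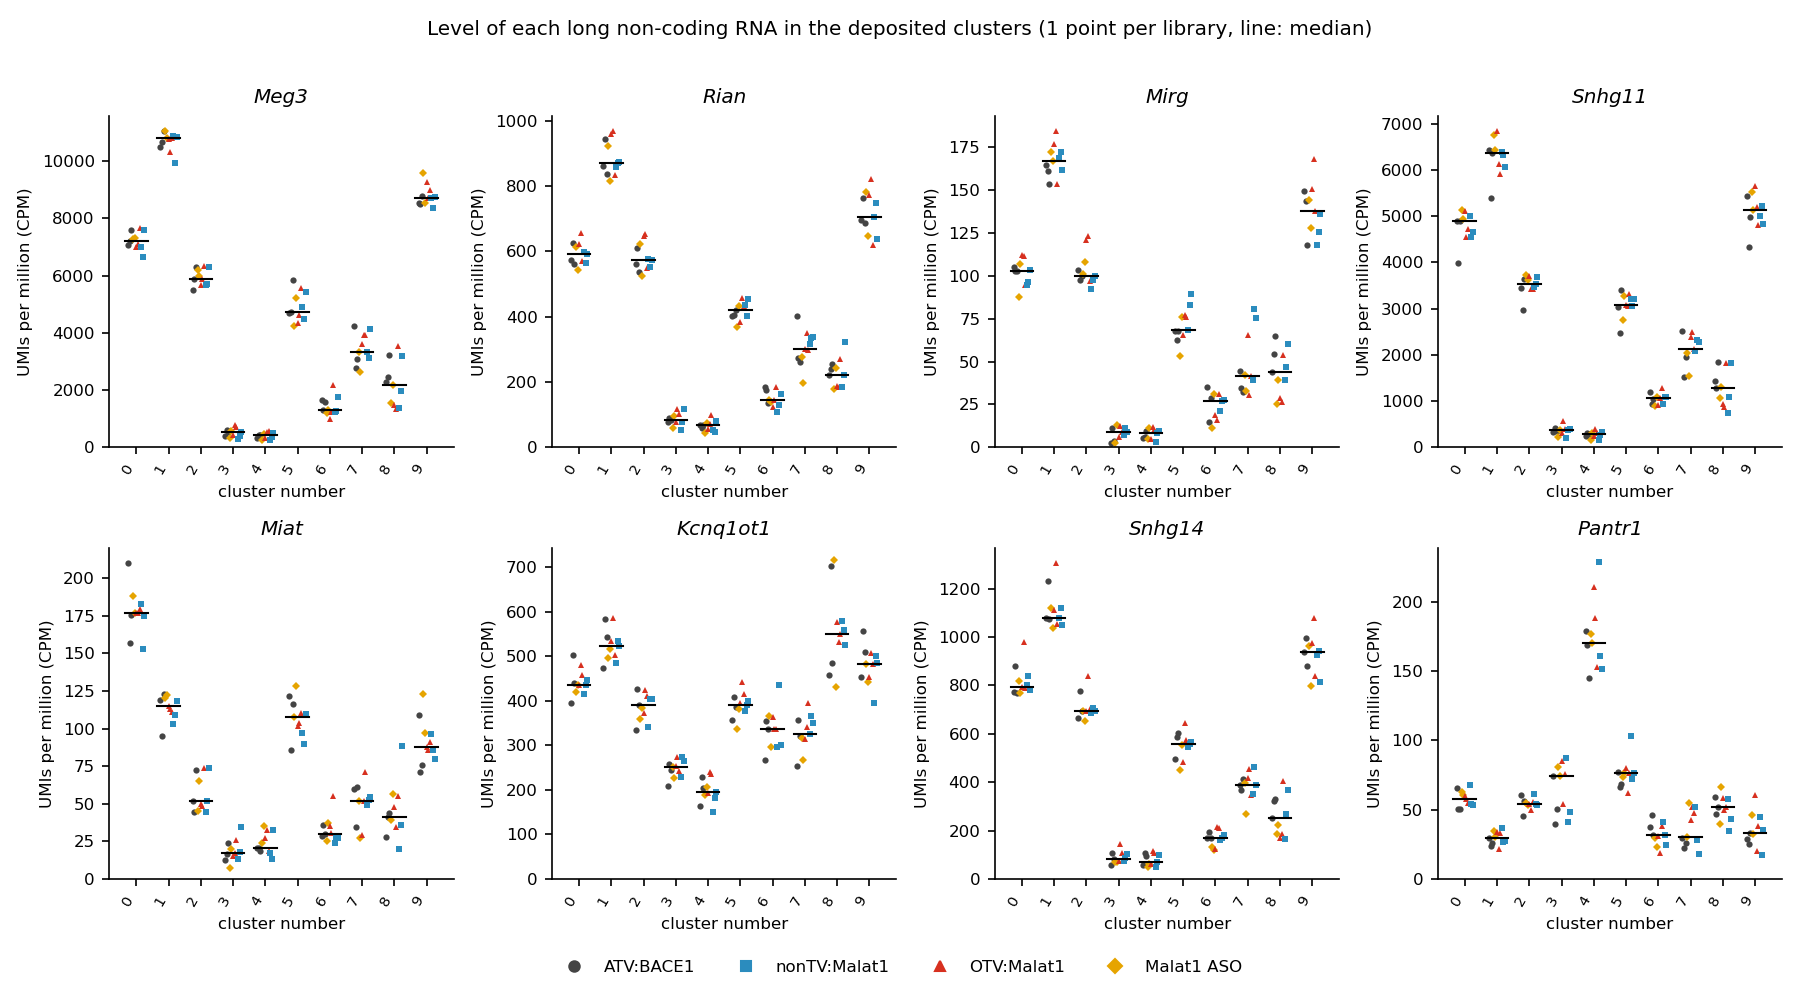
CPM (vertical axis, linear, from 0) of each RNA in the 10 deposited clusters (horizontal axis), with 1 point per library coloured by dosing group and a line at the median. Cluster 1 is highest for Meg3, Rian, Mirg, Snhg11 and Snhg14, cluster 0 for Miat and cluster 4 for Pantr1.

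Likeness between patterns was measured as Pearson's r of log2(mean CPM + 1) over the 10 clusters, as a description, since clusters share libraries and depth. Meg3 had r of 0.995 with Rian and 0.995 with Mirg of its own domain, and 0.998 with Snhg11 and 0.995 with Snhg14 of other chromosomes. It had 0.905 with Miat, 0.83 with Kcnq1ot1 and -0.61 with Pantr1. Malat1 had -0.41 with Meg3 and 0.74 with Pantr1. Of 7615 other genes of at least 20 CPM, those most like Meg3 were Dgkg (0.998), a diacylglycerol kinase gene, A230006K03Rik (0.998) and Ube3a (0.997). Ube3a, a ubiquitin ligase gene, was also among the 3 genes most like Snhg14 (0.998), after Cacna1b, a calcium channel gene (0.998), and before Celf4 (0.997). For Snhg11 they were Dgkg, A230006K03Rik and 4933413L06Rik (0.998, 0.998 and 0.997). For Rian they were March11 (0.997), Cacna1b (0.996) and Celsr3 (0.995), and for Mirg B830012L14Rik (0.998), Cntnap5c and Lin28b (both 0.995). Miat was most like Tmem200a (0.988), Cpne9 (0.985) and Kcnj6 (0.981), a potassium channel gene. Kcnq1ot1 was most like Hspa12a (0.976), Gm16083 (0.961) and Ubp1 (0.958), and Pantr1 like Fam234b (0.949), Gm20646 (0.945) and Mboat2 (0.930).

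The main comparison asked whether any of these RNAs moved when Malat1 fell, with OTV:Malat1 set against ATV:BACE1. Counts summed per library were tested with edgeR's quasi-likelihood test and Benjamini-Hochberg adjustment over all genes of a fit, and a call means an adjusted p under 0.05. In sums over all nuclei, fewer nuclei of a class and less RNA per nucleus cannot be told apart.

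Malat1 itself was at 7.45, 7.54 and 8.38% of UMIs in ATV:BACE1 replicates 1, 4 and 5 and at 4.95, 4.00 and 5.03% in OTV:Malat1, and the groups did not overlap. Its fitted log2 change was -0.79 (SE 0.136) with an unadjusted edgeR p of 0.000118, which the adjustment over 21409 genes did not call. By DESeq2 the change was -0.80 and was called (adjusted p 3.87e-09).

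Meg3 was at 6553, 6790 and 7396 CPM in ATV:BACE1 replicates 1, 4 and 5 and at 6525, 6694 and 7528 CPM in OTV:Malat1. In the same order, nonTV:Malat1 had 6096, 6412 and 7236 CPM and the 2 Malat1 ASO libraries (replicates 1 and 5) had 6620 and 7075 CPM. All groups overlapped, and replicate 5 was the highest library of each group. The edgeR log2 change of OTV:Malat1 over ATV:BACE1 was -0.05 (95% interval -0.29 to 0.20).

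Rian was at 561, 614 and 566 CPM in ATV:BACE1 and at 609, 649 and 583 CPM in OTV:Malat1. Mirg was at 104, 102 and 103 CPM in ATV:BACE1 and at 111, 117 and 102 CPM in OTV:Malat1. OTV:Malat1 was above ATV:BACE1 for Rian in all 3 replicate numbers and for Mirg in 2 of 3, with overlapping groups. On CPM of the UMIs other than Malat1, called CPM without Malat1, Rian was above in 2 of 3 and Mirg in 2 of 3, and Rian in replicate 5 was at -0.008 on the log2 scale. Their fitted log2 changes were 0.03 (-0.20 to 0.26) for Rian and 0.05 (-0.15 to 0.26) for Mirg.

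Snhg11 was at 4272, 3595 and 4495 CPM in ATV:BACE1 and at 4438, 4109 and 4350 CPM in OTV:Malat1, a log2 change of 0.02 (-0.19 to 0.23). Snhg14 was at 713, 830 and 752 CPM in ATV:BACE1 and at 727, 903 and 774 CPM in OTV:Malat1, a log2 change of 0.02 (-0.26 to 0.30). For Snhg14, replicate 4 was highest in each group that had one. Kcnq1ot1 was at 378, 479 and 437 CPM in ATV:BACE1 and at 420, 469 and 447 CPM in OTV:Malat1, a log2 change of -0.01 (-0.29 to 0.27).

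Miat was at 130, 104 and 127 CPM in ATV:BACE1 and at 113, 112 and 128 CPM in OTV:Malat1, a log2 change of -0.07 (-0.28 to 0.14). Pantr1 was at 61.9, 49.3 and 49.2 CPM in ATV:BACE1 and at 63.1, 53.0 and 53.3 CPM in OTV:Malat1, a log2 change of 0.04 (-0.30 to 0.38). Groups overlapped for both RNAs.

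None of the 8 RNAs was called in all nuclei, where 0% of 21409 genes were called. No member had an unadjusted edgeR p under 0.05 either, against 0.752% of genes, and DESeq2 called 0 members and 0.00467% of genes. The median log2 change of the 8 RNAs was 0.02 and that of all genes 0.007. No member separated the groups without overlap, against 3.47% of genes on CPM and 2.5% on UMIs without Malat1. The widest of the 8 intervals, that of Pantr1, reached -0.30 and 0.38 on the log2 scale. Each of the 8 stopped short of a 1.5-fold change in either direction. In simulated counts of this comparison 100 genes were changed 2-fold and 98 were changed 1.5-fold at once. The same test recovered 42% of the 2-fold and 12.2% of the 1.5-fold changes, so changes of 1.5-fold were mostly not called gene by gene. The changed genes were drawn at random from all that passed the count filter, so these shares are not specific to the 8 RNAs. With fewer genes changed the adjustment over all genes is stricter, so recovery of a lone change can be lower.

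**Figure D3:**
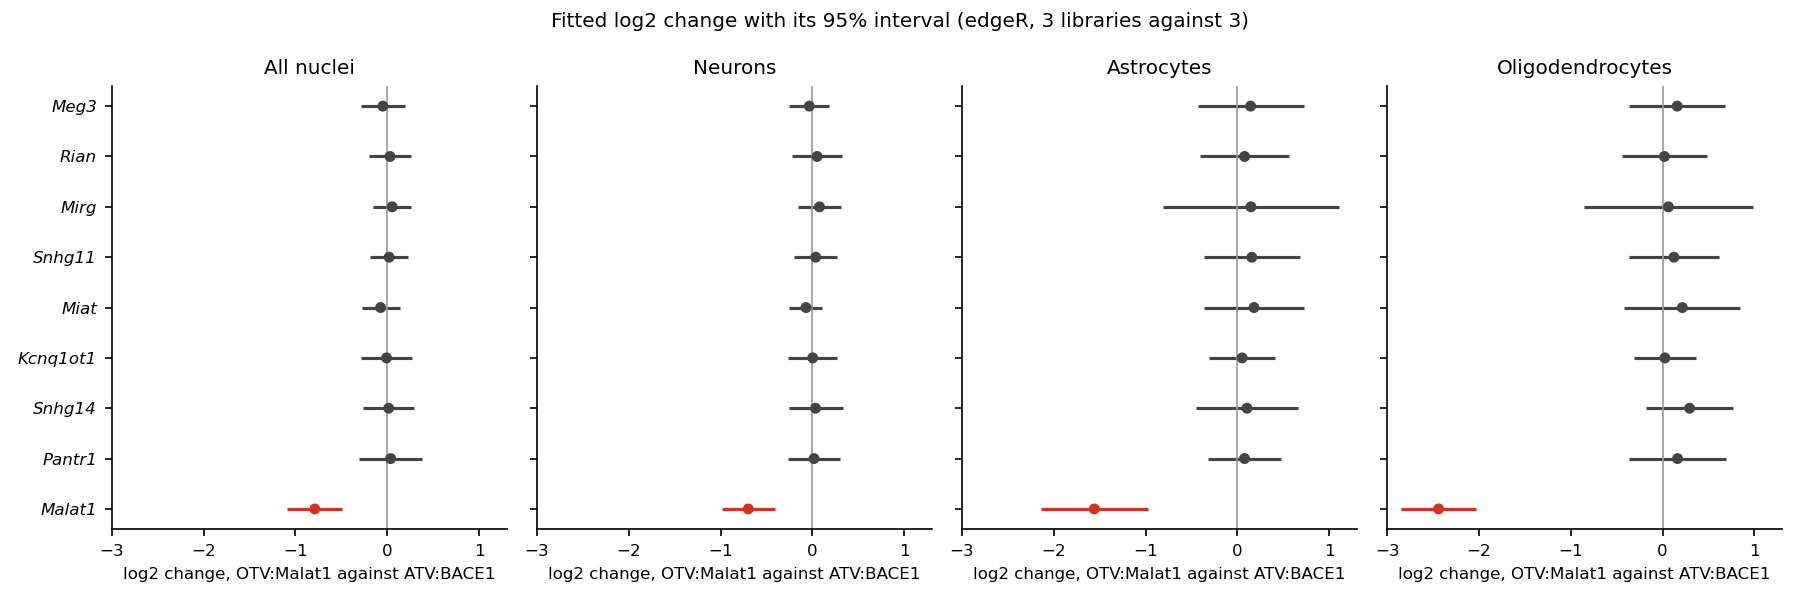
Fitted log2 change of OTV:Malat1 against ATV:BACE1 (horizontal axis) for each RNA and for Malat1 (red), as points with 95% intervals, in all nuclei, neurons, astrocytes and oligodendrocytes (edgeR, 3 libraries against 3). The interval of each of the 8 RNAs crosses 0 in the 4 panels, and those of Malat1 lie below 0.

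The other comparisons gave 0 calls in all nuclei as well. Changes of the 8 RNAs in nonTV:Malat1 against ATV:BACE1 ran from -0.16 (Miat) to 0.14 (Pantr1), where 0% of genes were called by edgeR and 0.901% had an unadjusted p under 0.05. In Malat1 ASO against ATV:BACE1 they ran from -0.09 (Snhg14) to 0.15 (Pantr1), with 0% and 1.75% of genes. OTV:Malat1 against nonTV:Malat1 gave -0.10 (Pantr1) to 0.11 (Mirg), with 0% and 0.766%, and against Malat1 ASO -0.11 (Pantr1) to 0.10 (Snhg14), with 0% and 0.621%. No member had an unadjusted edgeR p under 0.05 in these comparisons, and DESeq2 called 0 members in each, with 0% of genes in nonTV:Malat1 and 0.00934% in Malat1 ASO against ATV:BACE1, and 0.00467% and 0.00934% in OTV:Malat1 against nonTV:Malat1 and Malat1 ASO. The comparisons share libraries, so they are not independent of each other.

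Oligodendrocytes, the myelin-forming cells, were examined next because Malat1 fell furthest there among the classes tested, from a mean of 9.04% of UMIs in ATV:BACE1 to 1.80% in OTV:Malat1 (log2 change -2.44, SE 0.196, edgeR adjusted p 2.73e-06). A fall of this size raises the share of every other RNA by 0.11 on the log2 scale, so levels are given as CPM without Malat1.

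Snhg14 had the largest fitted change among the 8 RNAs in oligodendrocytes. It was at 75.7, 120.4 and 105 CPM without Malat1 in ATV:BACE1 replicates 1, 4 and 5, and at 83.4, 149 and 137 in OTV:Malat1. OTV:Malat1 was higher in 3 of 3 replicate numbers, by 0.14, 0.31 and 0.38 on the log2 scale within numbers 1, 4 and 5, and the groups overlapped. The edgeR log2 change was 0.29 (SE 0.225, 95% interval -0.18 to 0.77) and was not called. This fit had no replicate block, so differences between replicate numbers count towards its spread. With the block Snhg14 was not called either.

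Meg3 in oligodendrocytes was at 512, 705 and 749 CPM without Malat1 in ATV:BACE1 and at 501, 845 and 846 in OTV:Malat1, lower within replicate number 1 (-0.03 on the log2 scale) and higher within 4 and 5 (0.26 and 0.18). Pantr1 was at 75.7, 47.7 and 60.0 in ATV:BACE1 and at 81.5, 48.0 and 74.4 in OTV:Malat1, higher in 3 of 3 replicate numbers with overlapping groups. Their log2 changes were 0.16 (-0.37 to 0.68) and 0.16 (-0.37 to 0.69). The changes of the other RNAs were 0.21 for Miat, 0.12 for Snhg11, 0.06 for Mirg, 0.03 for Kcnq1ot1 and 0.02 for Rian.

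All 8 fitted changes in oligodendrocytes were above 0, with a median of 0.14 against 0.002 over all genes, and edgeR called 0 of the 8, where 0.00809% of genes were called. On CPM of all UMIs the median of the 8 was 0.24 against 0.11 for all genes, and without Malat1 it was 0.13 against -0.004. In simulated counts of this class the test recovered 49% of 100 2-fold and 5.16% of 97 1.5-fold changes, all made at once. No member separated the groups without overlap, while 7.67% of genes did on CPM and 5.39% without Malat1. The 7 neuron markers summed to 783, 786 and 759 CPM of all UMIs in ATV:BACE1 oligodendrocytes of replicates 1, 4 and 5. In OTV:Malat1 they were at 741, 754 and 1101 CPM, lower within numbers 1 and 4 and higher within 5. Their part in these changes was not tested. In nonTV:Malat1 they summed to 652 to 721 CPM.

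In astrocytes Malat1 went from 10.1 to 3.66% of UMIs (log2 change -1.56, SE 0.276, unadjusted edgeR p 2.65e-05), a change that edgeR did not call after adjustment (adjusted p 0.372). With the replicate number as a block edgeR called it (-1.55, SE 0.157, adjusted p 3.58e-07), as did DESeq2. The 8 changes ran from 0.05 for Kcnq1ot1 to 0.18 for Miat, with a median of 0.12 against 0.005 for all genes, and edgeR called 0 of 8 (0% of genes). The replicate numbers went different ways. Within number 1 the OTV:Malat1 library was lower for Mirg (log2 ratio of CPM without Malat1 -0.59), Rian (-0.44), Meg3 (-0.22), Snhg11 (-0.21) and Miat (-0.17). Within number 4 it was higher for the same 5 RNAs (0.86, 0.39, 0.29, 0.52 and 0.60). The 7 neuron markers summed to 654, 581 and 679 CPM in ATV:BACE1 astrocytes of replicates 1, 4 and 5. In OTV:Malat1 they were at 545, 594 and 907 CPM, lower within number 1 and higher within 4 and 5. Their part was not tested. Pantr1, whose highest class this is, was at 184, 179.6 and 157 CPM without Malat1 in ATV:BACE1 replicates 1, 4 and 5 and at 207, 183 and 148 in OTV:Malat1. It was higher in 2 of 3 replicate numbers, with a log2 change of 0.08 (-0.32 to 0.47).

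In neurons the log2 change of Malat1 was -0.70 (SE 0.133), which edgeR called with the replicate block (adjusted p 0.0476) and not without it, and the 8 changes ran from -0.07 for Miat to 0.08 for Mirg, with 0 of 8 called by edgeR (0% of genes). Cluster 9, where the fall of Malat1 was called (-1.12, SE 0.115, edgeR adjusted p 3.22e-05), gave 0.02 for Meg3 (-0.21 to 0.25), -0.00 for Snhg14 (-0.31 to 0.31) and 0.05 for Snhg11 (-0.20 to 0.30). Vascular endothelium, where Malat1 fell by 1.84 (SE 0.178, adjusted p 2.31e-07), had changes from -0.55 for Snhg14 (-1.46 to 0.37) to -0.01 for Kcnq1ot1 in the 5 RNAs that passed the count filter there. All 5 were below 0, and edgeR called 0 of the 5 (0.0225% of genes). Of the 5, Meg3, Rian, Snhg11 and Snhg14 had alike patterns over clusters (r of 0.992 to 0.998), so their shared direction is not 5 separate results. The median change of all genes in vascular endothelium is not given here. In that class the neuron markers were at 737 to 803 CPM in ATV:BACE1 and 789 to 882 CPM in OTV:Malat1. After thinning, Meg3 was detected there in 22.2% ± 5.26 of ATV:BACE1 and 31.6% ± 4.02 of OTV:Malat1 nuclei (SD, n = 3 each), the other direction from its fitted change of -0.24. Snhg14 was detected in 3.99% ± 3.02 and 2.34% ± 2.48 of them. Thinning left out 5.39% of ATV:BACE1 and 0.712% of OTV:Malat1 endothelial nuclei, which were too shallow (means over libraries).

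Over the 8 classes with enough libraries, 53 member tests gave 0 calls for OTV:Malat1 against ATV:BACE1, where 0.00385% of 77917 gene tests were called, all of them Malat1 (in oligodendrocytes, vascular endothelium and microglia, the last call being lost without OTV:Malat1 replicate 1, adjusted p 0.124). An unadjusted edgeR p under 0.05 was found in 2 of the 53 (3.77%, against 2.28% of all genes), Mirg and Snhg11 in nuclei named Glia, a class where 5.52% of genes had one. Over the 10 clusters edgeR called 0 of 80 member tests (0.00225% of gene tests) and 0 had an unadjusted p under 0.05 (1.72%), and DESeq2 called 0 of the 53 class tests (0.0077% of gene tests). As a description over the 10 clusters, which share the same 6 libraries and differ in depth, a member's change went against that of Malat1 with Pearson's r of -0.73 for Snhg14, -0.65 for Meg3 and for Mirg, -0.47 for Rian, -0.38 for Snhg11 and -0.35 for Pantr1. It was 0.05 for Kcnq1ot1 and 0.02 for Miat. Without cluster 3, where Malat1 changed most (-3.26) and 97.4% of nuclei were oligodendrocytes, r was -0.24 for Snhg14, -0.58 for Meg3 and -0.55 for Mirg. Rian then had -0.33, Snhg11 -0.49, Pantr1 -0.50, Kcnq1ot1 -0.08 and Miat -0.11. Over the 8 classes r was 0.0009 for Snhg14, so its pattern was not seen there. Meg3 had -0.26 over them (-0.02 without oligodendrocytes), Snhg11 -0.18, Rian -0.08 and Kcnq1ot1 0.24. Pantr1 had -0.72 over 5 classes, and over 4 classes Mirg had -0.58 and Miat 0.02. The r of all genes is not set beside these values, so they have no background. Mirg had a log2 change of 0.53 in cluster 3 (-0.71 to 1.76), on 3 to 14 UMIs per library, against 0.06 in the oligodendrocyte class. A limma test of whether a change in a class differed from the mean over 8 classes was possible for 5 members and called 0 of them, while 0.00493% of 20296 tests passed, which was Malat1 in oligodendrocytes.

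In nuclei named Glia, Mirg was at 37.1, 32.0 and 60.6 CPM in ATV:BACE1 replicates 1, 4 and 5 and at 16.8, 16.5 and 47.2 CPM in OTV:Malat1. OTV:Malat1 was lower within each replicate number. These values rest on 8 to 27 UMIs a library, and replicate 5 of OTV:Malat1 overlapped the control. Snhg11 was at 1170, 654 and 1121 CPM in ATV:BACE1 and at 560, 722 and 883 CPM in OTV:Malat1, also with overlap. It was lower within replicate numbers 1 and 5 and higher within 4. The log2 changes were -0.86 (SE 0.395) and -0.49 (SE 0.229), both with an edgeR adjusted p of 0.895. The 7 neuron markers summed to 1006 to 1454 CPM in the control and 680 to 1508 CPM in OTV:Malat1 in this class, and their part was not tested.

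Away from the receptor-binding conjugate, nonTV:Malat1 against ATV:BACE1 gave 0 edgeR calls of 53 class tests (0% of gene tests) and an unadjusted p under 0.05 in 5 (9.43%, against 2.07% of genes). Of these, 3 were in pericytes, the contractile cells of small vessels, where 4.18% of genes had one. Meg3 there was at 407, 478 and 398 CPM in ATV:BACE1 replicates 1, 4 and 5 and at 757, 1812 and 492 CPM in nonTV:Malat1. The groups did not overlap, and replicate 4 of nonTV:Malat1, with 40 nuclei and 174 UMIs of Meg3, was the highest library. The 7 neuron markers summed to 350 to 514 CPM in ATV:BACE1 and 464 to 844 CPM in nonTV:Malat1 pericytes, with 844 in replicate 4 of nonTV:Malat1, and their part was not tested. The log2 change of Meg3 was 1.20 (SE 0.324, edgeR adjusted p 0.511), and it was called without the count filter (1.19, adjusted p 0.000204) and without nonTV:Malat1 replicate 5 (1.55, adjusted p 0.0132). The share of all genes called under these settings is not given here. The share of genes without overlap was not computed for pericytes, so neither result has a background. Snhg14 (0.91, SE 0.401) and Snhg11 (0.62, SE 0.293) also had an unadjusted p under 0.05 in pericytes, and Meg3 (-0.53, SE 0.259) and Snhg11 (-0.53, SE 0.228) in nuclei named Glia. The neuron markers in nuclei named Glia were at 1006 to 1454 CPM in ATV:BACE1 and lower, at 790 to 977 CPM, in nonTV:Malat1, without overlap, and their part was not tested. Malat1 ASO against ATV:BACE1 gave 0 calls of 53, with Snhg14 in vascular endothelium (-1.23, SE 0.536) as the 1 unadjusted p under 0.05 (1.89%, against 2.62% of genes; 0% were called). The neuron markers there were at 737 to 803 CPM in ATV:BACE1 and 443 to 1086 CPM in Malat1 ASO. OTV:Malat1 against nonTV:Malat1 gave 0 edgeR calls of 57 (0.00252% of gene tests), and 1 unadjusted p under 0.05 (1.75%, against 1.74%), again Meg3 in pericytes (-0.99, SE 0.320). OTV:Malat1 against Malat1 ASO gave 0 of 57 (0.00378%), and 1 unadjusted p under 0.05 (1.75%, against 1.94%), Snhg14 in leptomeningeal cells (0.98, SE 0.406). The neuron markers in leptomeningeal cells were also higher without overlap, at 784 to 1134 CPM in OTV:Malat1 against 518 to 765 CPM in Malat1 ASO, and their part was not tested. DESeq2 called 0 members in these class comparisons, with 0% of gene tests in nonTV:Malat1 and 0.00128% in Malat1 ASO against ATV:BACE1, and 0.00503% in OTV:Malat1 against each of the other 2 groups.

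Genes of the same loci were read alongside. Of 34 imprinted or neighbouring genes 27 passed the count filter in all nuclei, and edgeR called 0 up and 0 down in OTV:Malat1 against ATV:BACE1, with 0 unadjusted p under 0.05 and a median log2 change of 0.005. Of 35 other long non-coding RNAs 30 were tested, again with 0 up and 0 down and a median of 0.02. Ube3a, the antisense partner of Snhg14, had a change of 0.05 (SE 0.232) in all nuclei, and Rtl1, a paternally expressed gene of the Dlk1-Dio3 domain, 0.09 (SE 0.376). Cdkn1c, the growth inhibitor silenced by Kcnq1ot1, had -0.43 (SE 0.228) at 2.74 CPM (median), and Pou3f3 0.03 (SE 0.096). Dio3 had a median of 0 CPM over libraries. Neat1, the neighbour of Malat1, had 0.02 (SE 0.086).

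Whether single nuclei low in Malat1 held more or less of each RNA was asked within libraries. Within each library, nuclei of the same class and cluster were ranked by their Malat1 share, and the log2 ratio of each RNA's share of UMIs without Malat1 was taken between the lowest and the highest quartile. In neurons the low quartiles held 2.23 to 5.38% Malat1 and the high quartiles 6.57 to 11.8%.

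Pantr1 was lower in low-Malat1 neurons in 11 of 11 libraries, with a median log2 ratio of -0.54, against -0.04 for all genes. A lower share in all 11 libraries was seen for 8.04% of genes in neurons. In astrocytes Pantr1 was again lower in 11 of 11 (median -0.41), where 0.812% of genes were. In oligodendrocytes it was lower in 3 of 11, so the direction did not extend to that class. Kcnq1ot1 was lower in low-Malat1 oligodendrocytes in 11 of 11 libraries (median -0.47; 1.38% of genes), while in neurons it was higher in 10 of 11 (median 0.10). Rian (median 0.09) and Snhg14 (0.05) were also higher in low-Malat1 neurons in 10 of 11 libraries, and Snhg11 was lower in 10 of 11 (-0.16). The same direction in at least 10 of 11 libraries was thus seen for 5 of 8 members in neurons, where it was seen for 24.1% of genes. In oligodendrocytes it was seen for Kcnq1ot1 and Meg3 (higher in 10 of 11, median 0.17), 7.41% of genes doing so, and in astrocytes for Pantr1 (5.21% of genes). Median UMIs per nucleus were 2740 to 5434 in low and 2261 to 5009 in high quartiles of neurons, 882 to 1595 and 862 to 1846 in astrocytes, and 671.5 to 1124.5 and 727 to 1280 in oligodendrocytes, and the part of depth was not tested.

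The ratio was then compared between OTV:Malat1 and ATV:BACE1 by a two-sided exact permutation test, in which 3 libraries against 3 cannot give a p below 0.1. In neurons the groups did not overlap for 6 of the 8 RNAs, each with OTV:Malat1 higher, against 20.4% of genes in either direction. Pantr1 had log2 ratios of -0.27 ± 0.202 (SD, n = 3) in OTV:Malat1 and -0.64 ± 0.161 (SD, n = 3) in ATV:BACE1. Meg3 had 0.09 ± 0.015 and -0.05 ± 0.055 (SD, n = 3 each), and Snhg14 0.13 ± 0.021 and 0.01 ± 0.023. The differences were 0.37 for Pantr1, 0.14 for Snhg11, 0.13 for Meg3, 0.13 for Snhg14, 0.11 for Rian and 0.10 for Mirg.

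Astrocytes went the other way. The groups did not overlap for 3 of the 7 RNAs with enough UMIs, each with OTV:Malat1 lower, against 15.9% of genes. The differences were -0.90 for Rian, -0.48 for Meg3 and -0.29 for Snhg11. Rian rests there on 13 to 47 UMIs a quartile in these libraries. In oligodendrocytes 2 of 7 did not overlap, Snhg11 (-0.52) and Kcnq1ot1 (-0.46), both lower in OTV:Malat1, against 13.5% of genes. Each of these 11 differences had an exact p of 0.1, the smallest possible, and 0.218 after Benjamini-Hochberg adjustment over 8 RNAs in 3 classes, so none passed. The Malat1 share of both quartiles was lower in each OTV:Malat1 library than in any ATV:BACE1 library in the 3 classes.

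**Figure D4:**
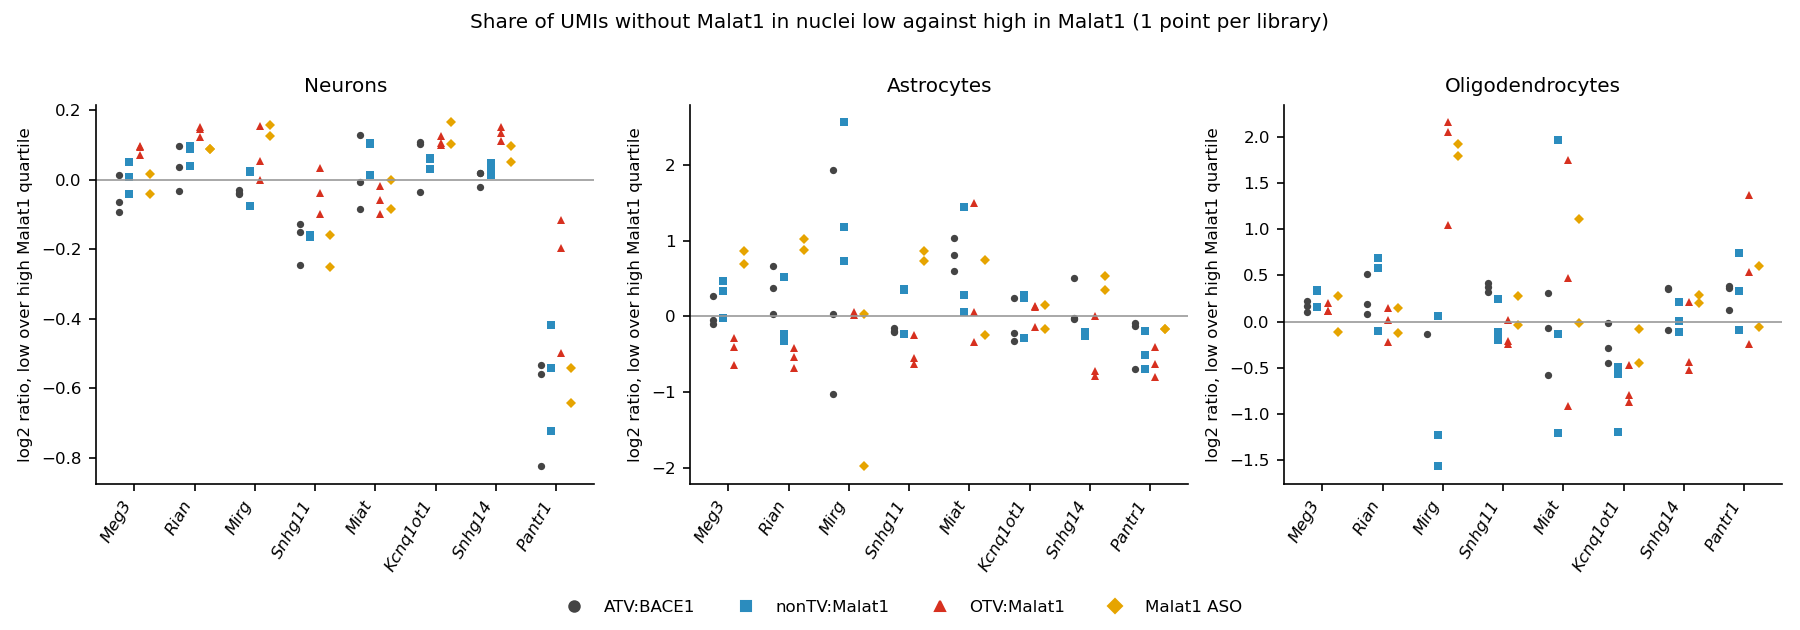
log2 ratio of each RNA's share of UMIs without Malat1 in the quartile of nuclei lowest in Malat1 over the highest quartile (vertical axis, a separate scale per panel), with 1 point per library coloured by group, in neurons, astrocytes and oligodendrocytes. Pantr1 lies below 0 in all libraries in neurons and astrocytes, Kcnq1ot1 in oligodendrocytes, and libraries with 0 UMIs of Mirg in a quartile have no point.

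Levels also differed by replicate number, which the deposited table gives as a batch and which also goes with sex and age. Replicates 1 and 5 share an age and differ in batch and sex, and replicates 4 and 5 are both male and differ in batch and age, so within each of these pairs those factors cannot be told apart. An edgeR test of the number beside the dosing group, added after the data were seen, called 7 of 8 RNAs in oligodendrocytes (17.9% of genes) and 7 of 8 in astrocytes (19.5%). It called 4 of 8 in neurons, where 48.4% of genes passed, and 3 of 8 in all nuclei, where 47% did. Calls were 3 of 5 in microglia (7.09% of genes), 2 of 6 in leptomeningeal cells (5.41%) and 2 of 5 in vascular endothelium (1.10%). They were 1 of 8 in nuclei named Glia (2.08%), 0 of 5 in pericytes (0.824%) and 0 of 4 in vascular smooth muscle (0.194%).

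Meg3 in oligodendrocytes was at 354 to 492 CPM in the 4 libraries of replicate 1, 468 to 832 in the 3 of replicate 4 and 678 to 829 in the 4 of replicate 5. Replicates 1 and 5 did not overlap. The fitted log2 differences from replicate 1 were 0.61 and 0.70 for replicates 4 and 5 (edgeR adjusted p 5.75e-06). In astrocytes its medians were 386, 499 and 702 CPM, with differences of 0.53 and 0.79 (adjusted p 7.42e-06). In neurons Meg3 differed by 0.05 and 0.02 and was not called (adjusted p 0.760).

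Snhg14 in oligodendrocytes was at 69.4 to 83.2 CPM in replicate 1 and 95 to 147 CPM in replicates 4 and 5, without overlap (adjusted p 0.00186). Snhg11 had medians of 326, 409 and 472 CPM there (adjusted p 0.000259). Pantr1 went down instead, from a median of 75.4 CPM in replicate 1 to 43.2 in replicate 4 and 63.6 in replicate 5 (adjusted p 0.0030), and in astrocytes from 184 to 161 and 148 CPM (adjusted p 0.0207). Neurons were 60.8 to 66.7% of nuclei in libraries of replicate 1, 64.6 to 70.05% in replicate 4 and 71.7 to 80.9% in replicate 5. The 7 neuron markers summed to a median of 731, 754 and 791 CPM in oligodendrocytes and 551, 581 and 674 CPM in astrocytes of the 3 numbers, and the part of neuronal RNA in these differences was not tested.

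**Figure D5:**
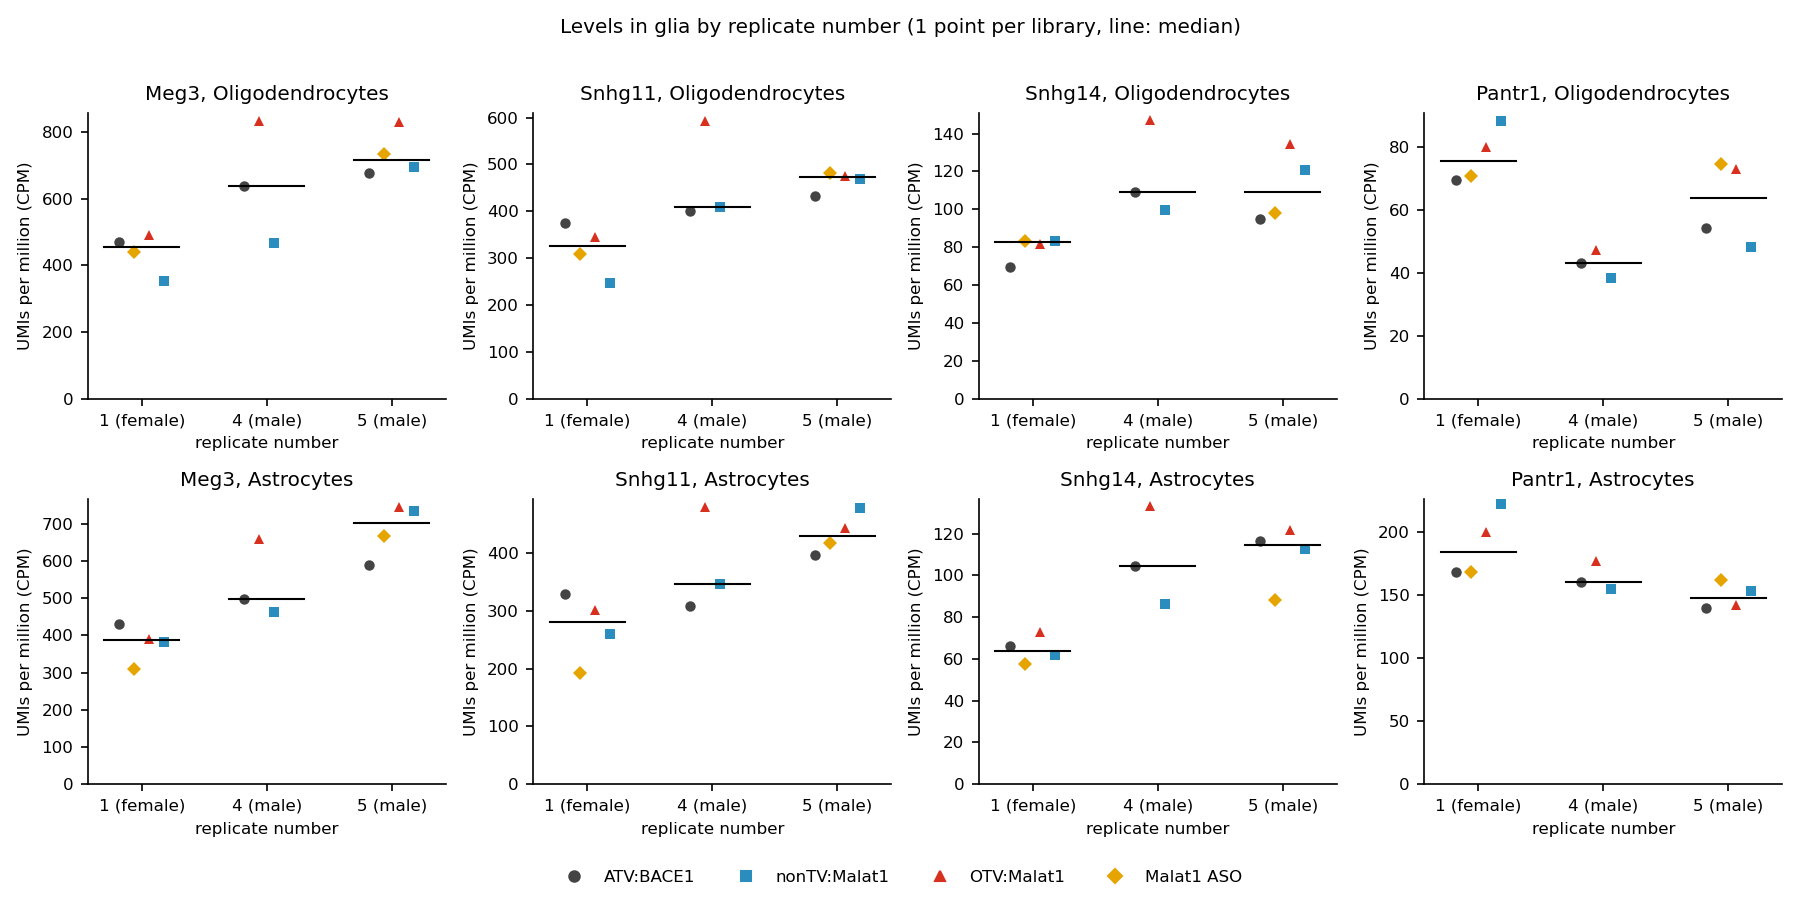
CPM (vertical axis, linear, from 0) of Meg3, Snhg11, Snhg14 and Pantr1 in oligodendrocytes (top row) and astrocytes (bottom row) by replicate number and sex (horizontal axis), with 1 point per library coloured by dosing group and a line at the median. Meg3, Snhg11 and Snhg14 are lowest in the libraries of replicate 1 by their medians, and Pantr1 is highest there.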

How the data were processed

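Single-nucleus RNA was captured in droplets in 11 libraries of 4 dosing groups. The authors deposited UMI counts per gene and nucleus, made with Cell Ranger 5.0.0 and Seurat 4 on build mm10 per the submitters' processing notes, and per nucleus a class, cluster, batch, doublet call and total count. For introns, strand and filters on nuclei, the setting is not given in the sources used here. A deposited percent of mitochondrial UMIs and the deposited fraction scores of class and doublet calls were checked and not used in tests. Nuclei called doublets (10.4%) were kept, and left out as an alternative.

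Counts were summed per library and class or cluster (at least 20 nuclei in a library and 2 such libraries a group) and tested with edgeR 4.0.16 (TMM, filterByExpr, quasi-likelihood, 4 groups in 1 fit, R 4.3.3), with DESeq2 1.42.0 as an alternative. Whether a change differed by class was tested in limma 3.58.1 (log2 CPM, prior count 2). Levels are CPM computed from the deposited counts. The genes named are the 8 RNAs, Malat1, neighbours of the 8 and the 3 genes most like each over clusters. The members and lists were chosen with earlier results of these data known. The fits were tested on simulated data with known changes.

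Replicate numbers pair libraries through the deposited batch: deviations from group means over 6686 genes correlated at 0.350 to 0.836 between libraries of the same number (15 pairs) and at -0.826 to 0.246 otherwise (30 pairs). The replicate-number test and the share of genes behind the quartile counts were added after the data were seen. Intervals cover the spread between libraries.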

Additional observations from a re-analysis of the deposited data

How the results depend on the processing

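Counts of calls among the 8 RNAs were recomputed with DESeq2, without TMM, without Malat1 in the library, without the filter on low counts, without called doublets, without nuclei under 1000 UMIs, with the replicate number as a block and with each library left out. In all nuclei they stayed at 0 of 8 in the 5 comparisons under these settings. Over classes they stayed at 0 except for Meg3 in pericytes. Without the filter on low counts it gave 1 call in nonTV:Malat1 against ATV:BACE1 (log2 change 1.19) and 1 in OTV:Malat1 against nonTV:Malat1 (-0.95, edgeR adjusted p 0.0256). Leaving out single libraries gave 0 to 1 calls in nonTV:Malat1 against ATV:BACE1, the 1 call coming without nonTV:Malat1 replicate 5 (1.55), and the cause was not tested. For these calls of Meg3 the share of all genes called under the same setting is not given here. With the replicate block, members called stayed at 0 in every comparison, so the block changed no call among the 8 RNAs. For Malat1 in OTV:Malat1 against ATV:BACE1 it added edgeR calls in astrocytes (-1.55), neurons (-0.70, adjusted p 0.0476) and pericytes (-0.83, adjusted p 0.00311). Its edgeR call in microglia (-0.94, adjusted p 0.00212) was lost without the filter on low counts (-0.93, adjusted p 1), without nuclei under 1000 UMIs (-1.04, adjusted p 0.588) and without OTV:Malat1 replicate 1 (-0.90, adjusted p 0.124).

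In all nuclei, 53 of 56 values of the 8 changes under other settings and 73 of 88 with a library left out kept their sign in OTV:Malat1 against ATV:BACE1, and the largest moves were 0.053 and 0.150 on the log2 scale. Neurons remained the highest class for 6 of 8 RNAs under every alternative run. Depth limits Mirg and Miat outside neurons, where microglia and endothelium held 9 to 23 UMIs of either in all libraries, and 2 to 3 libraries a group limit all tests.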
